A study of Mus musculus with 4 samples.

Results

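*Slc22a3*, *Gm13373*, *Espnl* and *Gabrr2* are 4 of the 27998 genes in the feature table, and all 4 passed the minimum used here, 10 CPM (the UMIs of a gene scaled by all UMIs of the same cells) in either library of a pair, in both pairs. They were chosen from their values in these libraries, because their RNA was among the most reduced in both dystrophic libraries relative to the matching control. Their levels, ratios and ranks between dystrophic and control libraries are therefore descriptions. Satellite cells, the resident stem cells of skeletal muscle, were sorted as ITGA7+/VCAM+/Lin- from the lower hindlimbs of 2 pooled mice per strain and captured on the 10X Genomics platform, which counts unique molecular identifiers (UMIs) near the 3′ end of each transcript. The 4 libraries were B10 (C57/Bl10ScsSn, 15 weeks old), *mdx* (C57BL/10ScSn-Dmdmdx, 11 weeks), DBA (DBA/2, 13 weeks) and D2-*mdx* (D2.B10-Dmdmdx, 14 weeks). Both dystrophic strains carry the *mdx* allele of the dystrophin gene *Dmd* in every tissue, each on the background of its control, and the labels give no treatment. Every strain was 1 library with no replicate, so values were compared without tests, and differences between strains cannot be told apart from differences between ages or between pooled mice.

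A satellite cell in resting muscle is quiescent and expresses the transcription factor *Pax7*, and it leaves quiescence after damage to proliferate, self-renew or differentiate. In dystrophin-deficient muscle, fibres degenerate and regenerate repeatedly, so satellite cells are drawn on again and again. *Slc22a3* encodes organic cation transporter 3, a low-affinity carrier of monoamines such as noradrenaline and histamine and of cationic drugs, and lies in the *Igf2r* imprinted region. *Gabrr2* encodes the rho 2 subunit of GABA-gated chloride channels, known best from the retina. *Espnl* encodes espin-like protein, which binds actin and is known from the stereocilia of hair cells. *Gm13373* is annotated as a long intergenic noncoding RNA, and no function is given for it here.

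The gene models are from GENCODE M21 on GRCm38. *Slc22a3* (ENSMUSG00000023828) lies on the minus strand at chr17:12418960-12507704, *Gm13373* (ENSMUSG00000087196) on the minus strand at chr2:28315016-28324050, *Espnl* (ENSMUSG00000049515) on the plus strand at chr1:91322075-91348306 and *Gabrr2* (ENSMUSG00000023267) on the plus strand at chr4:33062999-33095865. *Slc22a3* has 2 annotated transcripts, *Espnl* 2 and *Gabrr2* 4, while *Gm13373* has 1 with 3 exons and 655 bases. The last exon of *Slc22a3* overlaps an exon of *Plg*, the plasminogen gene, on the opposite strand. *Plg* had 0 UMIs in the *Pax7*-positive cells of B10, *mdx* and D2-*mdx* and 2 in those of DBA.

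The 4 genes were all lower in both dystrophic libraries and lie on different chromosomes, so the sequence just upstream of their starts is shown. The bases are from RefSeq's promoter windows on GRCm38.p6, 5′ to 3′ on the strand of the gene, and end at the base before the GENCODE start. Capitals mark the E-box CANNTG, bound by MyoD-type and other helix-loop-helix factors, and TTANGTAA, the element of the PAR bZIP factors such as Hlf. The *Slc22a3* sequence is chr17:12507705-12507954 on the minus strand, that of *Espnl* is chr1:91321825-91322074 on the plus strand and that of *Gabrr2* is chr4:33062862-33062998 on the plus strand. The *Gabrr2* sequence is shorter, 137 bases instead of 250. Its RefSeq start, also the start of 1 GENCODE transcript, lies downstream of the outermost GENCODE start, and the window was cut at the latter.
Slc22a3: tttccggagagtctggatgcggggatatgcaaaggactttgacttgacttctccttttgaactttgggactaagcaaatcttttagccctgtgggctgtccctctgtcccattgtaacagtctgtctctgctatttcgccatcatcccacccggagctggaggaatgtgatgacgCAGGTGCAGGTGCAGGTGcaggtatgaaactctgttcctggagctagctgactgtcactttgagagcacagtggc
Espnl: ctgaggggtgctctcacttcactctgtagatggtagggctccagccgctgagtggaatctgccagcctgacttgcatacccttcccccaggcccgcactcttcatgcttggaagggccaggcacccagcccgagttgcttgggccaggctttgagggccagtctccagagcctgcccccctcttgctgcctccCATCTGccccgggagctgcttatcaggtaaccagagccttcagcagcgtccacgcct
Gabrr2: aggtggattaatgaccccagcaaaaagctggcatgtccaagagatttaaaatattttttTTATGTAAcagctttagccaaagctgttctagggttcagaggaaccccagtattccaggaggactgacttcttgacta
For *Gm13373*, RefSeq gave 10 windows and none at the GENCODE start, the nearest being 2076 bases away, so no sequence is printed.

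The *Slc22a3* sequence held 3 adjacent copies of CAGGTG, which is itself a form of CANNTG, without a gap between them. Over all 32817 windows of 250 bases, 17.2% held CAGGTG at least 1 time on either strand and 0.247% held it 3 or more times. *Espnl* held 1 CANNTG, which 66.2% of all windows held at least 1 time. The 137 bases of *Gabrr2* held none, where 46.1% of windows of that length had a match. *Gabrr2* held 1 TTANGTAA, which was present in 1.18% of windows of its length, and the sequences of *Slc22a3* and *Espnl* held none. The AP-1 element TGANTCA (6.75% of windows), the cyclic AMP response element TGACGTCA (1.55%), the RBPJ element GTGGGAA (5.42%), the GC box GGGCGG (32.7%) and TATAAA (12.4%) had no match in the 3 sequences on either strand. These 5 shares are for 250 bases, and the bases between the outermost GENCODE start and the RefSeq start of *Gabrr2* were not searched. The motifs were chosen with the expression values known and the CAGGTG run after the sequence was seen, and a match is a string of letters, not a binding site.

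Cells were kept at 1000 to 5000 genes and up to 8% mitochondrial UMIs after removal of predicted doublets. The controls B10 and DBA had 4581 and 3279 kept cells (median depths 8466 and 10434 UMIs), the dystrophic *mdx* and D2-*mdx* 6313 and 5756 (7021 and 6666 UMIs), and deposited totals per library ran from 43542853 to 75482888 UMIs. Any pair of libraries shared 3 to 8 kept barcodes. *Dmd* was at 326 CPM in B10 against 132 in *mdx*, and at 291 in DBA against 109.8 in D2-*mdx*, lower in both libraries labelled with the *mdx* allele (-1.31 and -1.41 on the log2 scale). B10 stood apart in its low barcodes, with 4739 under 1000 genes, against 11 to 21 in the others. Values are given for *Pax7*-positive cells, those with at least 1 *Pax7* UMI, of which B10 had 4413, *mdx* 4380, DBA 2766 and D2-*mdx* 3839, with median depths of 8471, 7009, 10334 and 6470 UMIs. *Pax7* itself was at 908, 476, 688 and 495 CPM in B10, *mdx*, DBA and D2-*mdx*, respectively. A *Pax7* UMI was looked for at full depth, and the sets were not matched in make-up. Clusters named muscle stem cell (MuSC)-like by their markers held 89.7% of kept cells in B10 and 50.3% in *mdx*. They held 76.5% in DBA and 49.8% in D2-*mdx*. In parentheses are exact 95% intervals, Poisson for CPM, Clopper-Pearson for shares and conditional binomial for log2 ratios, all covering counting error only.

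*Slc22a3*, the transporter, was counted at 17.8 CPM (16.6 to 19.2) in B10 from 714 UMIs. In *mdx* it was at 0.190 CPM (0.0762 to 0.391), from 7 UMIs in 6 cells. In DBA it was at 99.1 CPM (95.6 to 103) from 3073 UMIs and in D2-*mdx* at 3.76 CPM (3.11 to 4.501) from 117. Each dystrophic library was thus far below both controls, and the intervals of the 4 libraries did not overlap. The control level was 94.1-fold that of *mdx* in the B10 pair and 26.4-fold that of D2-*mdx* in the DBA pair, log2 ratios of -6.56 (-7.88 to -5.51) and -4.72 (-5.00 to -4.45).

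*Gm13373*, the noncoding RNA, followed the same order of libraries. It was at 13.6 CPM (12.5 to 14.8; 546 UMIs) in B10 and 0.786 (0.526 to 1.13; 29 UMIs) in *mdx*. DBA had 95.6 CPM (92.2 to 99.1; 2965 UMIs) and D2-*mdx* 5.04 (4.28 to 5.89; 157 UMIs). The 2 comparisons gave close log2 ratios, -4.12 (-4.71 to -3.58) in the B10 pair and -4.25 (-4.49 to -4.01) in the DBA pair. DBA held up to 13 UMIs in a cell, B10 and D2-*mdx* up to 5 and *mdx* up to 2.

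*Espnl*, the actin-binding espin relative, was at 12.3 CPM (11.3 to 13.5; 494 UMIs) in B10 and 0.813 (0.548 to 1.16; 30 UMIs) in *mdx*. It was at 34.9 CPM (32.9 to 37.1; 1084 UMIs) in DBA and 3.18 (2.58 to 3.87; 99 UMIs) in D2-*mdx*. The log2 ratios were -3.93 (-4.51 to -3.39) and -3.46 (-3.77 to -3.16). No *mdx* cell held more than 1 *Espnl* UMI.

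*Gabrr2*, the receptor subunit, had similar levels in both controls, at 10.8 CPM (9.83 to 11.9; 433 UMIs) in B10 and 12.9 (11.6 to 14.2; 399 UMIs) in DBA. It was at 0.731 CPM (0.482 to 1.06; 27 UMIs) in *mdx* and 1.22 (0.863 to 1.67; 38 UMIs) in D2-*mdx*. The log2 ratios were -3.89 (-4.51 to -3.33) and -3.40 (-3.92 to -2.92). The dystrophic libraries were below both controls, with overlapping intervals within the controls and within the dystrophic libraries.

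**Figure D1:**
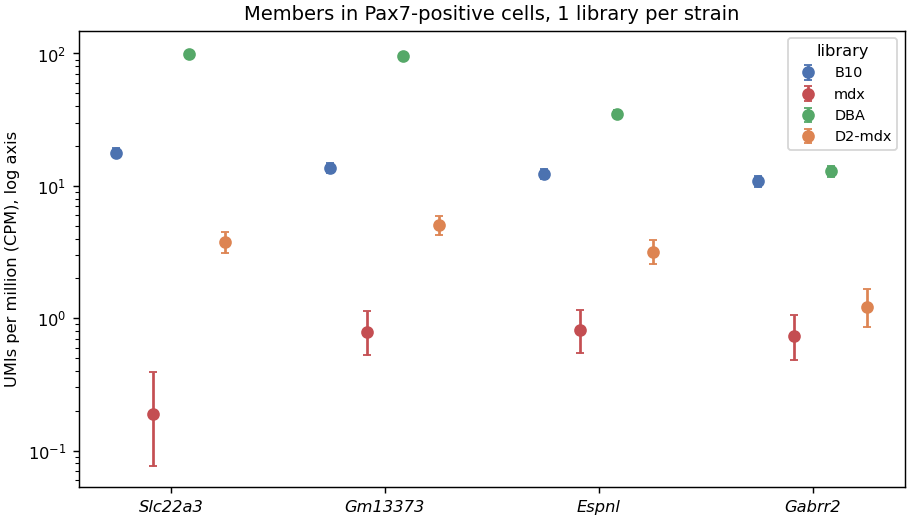
CPM of the 4 genes in *Pax7*-positive cells of each library, on a log axis, with 1 point per library and exact 95% Poisson intervals. *Slc22a3* ran from 0.190 in *mdx* to 99.1 in DBA, while *Gabrr2* stood at 10.8 and 12.9 in the controls and 0.731 and 1.22 in the dystrophic libraries.

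The 4 genes differed in how far they varied between the strain backgrounds. DBA over B10 gave log2 ratios of 2.47 (2.35 to 2.59) for *Slc22a3*, 2.81 (2.68 to 2.94) for *Gm13373*, 1.501 (1.35 to 1.66) for *Espnl* and 0.25 (0.05 to 0.45) for *Gabrr2*. D2-*mdx* over *mdx* kept this direction, at 4.31 (3.22 to 5.65), 2.68 (2.10 to 3.31), 1.97 (1.37 to 2.61) and 0.74 (-0.01 to 1.51). The interval of *Gabrr2* between the dystrophic libraries included 0. In D2-*mdx*, the 3 genes with the larger differences were still below the B10 control, with 3.76 against 17.8 CPM for *Slc22a3*, 5.04 against 13.6 for *Gm13373* and 3.18 against 12.3 for *Espnl*.

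All 4 genes had a log2 ratio at or below -1 in both comparisons, the limit used for a call. The same limit was met by 4.31% of all genes that passed the minimum in the B10 pair, by 4.54% in the DBA pair and by 2.57% in both, and since these ratios chose the genes, nothing is read from the count. The median log2 ratio was -4.02 over the 4 genes and -0.02 over all genes in the B10 pair, and -3.85 and -0.05 in the DBA pair. Among 7741 genes at 10 CPM or more in both controls, ordered by the ratio that was less negative, *Slc22a3* was at rank 1, *Gm13373* at 2, *Espnl* at 5 and *Gabrr2* at 6. *Hlf*, a PAR bZIP transcription factor (-3.97 and -4.09), and *Mirg*, a noncoding RNA of the *Dlk1*-*Meg3* imprinted region (-3.60 and -4.03), lay between them. Just outside were *Cdh4*, which encodes R-cadherin (-3.37 and -4.84), *Mgarp* (-4.27 and -3.21), *B830012L14Rik* (-3.08 and -3.08) and *Clmp*, an adhesion molecule gene (-3.01 and -4.27). In *mdx* over B10 alone, *Slc22a3* was at rank 3 and *Gabrr2* at 11, and in D2-*mdx* over DBA alone at 2 and 12.

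**Figure D2:**
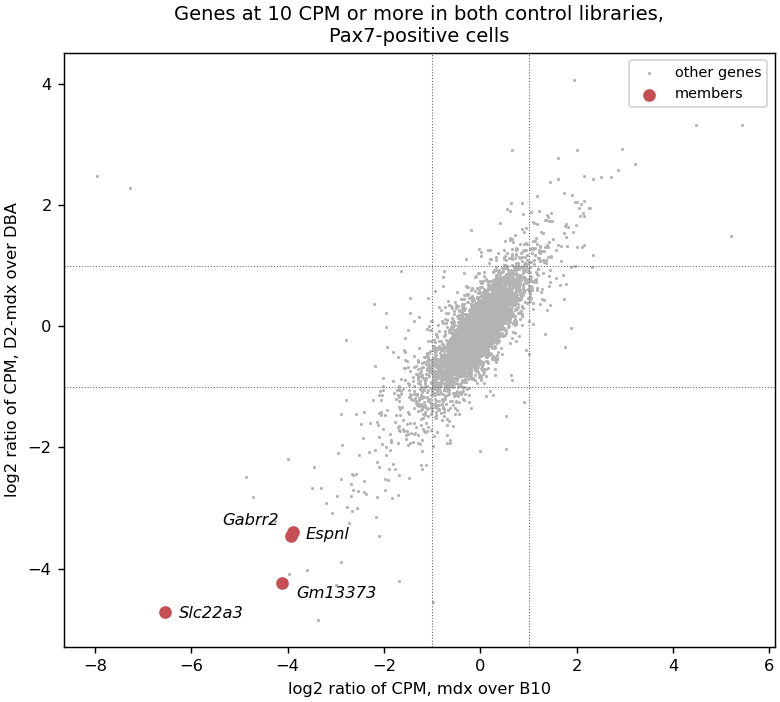
Log2 ratio of *mdx* over B10 (x axis) against D2-*mdx* over DBA (y axis) in *Pax7*-positive cells, with a point for each gene at 10 CPM or more in both controls and the 4 genes marked. They lie in the lower left corner, *Slc22a3* at -6.56 and -4.72 and *Gabrr2* at -3.89 and -3.40.

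Because depth per cell differed between libraries, each *Pax7*-positive cell was thinned to 3000 UMIs before cells with a UMI were counted, which left out 36 B10 cells and none of the others. At this equal depth, *Slc22a3* was detected in 4.87% of B10 cells (4.25 to 5.55; 213 of 4377), 0.0913% of *mdx* cells (0.0249 to 0.234; 4 of 4380), 24.9% of DBA cells (23.3 to 26.6; 690 of 2766) and 1.25% of D2-*mdx* cells (0.923 to 1.65; 48 of 3839). *Gm13373* was detected in 4.41%, 0.342%, 23.0% and 1.85% of cells in B10, *mdx*, DBA and D2-*mdx*. The shares of *Espnl* were 3.34%, 0.228%, 9.73% and 1.04%, and those of *Gabrr2* 3.04%, 0.297%, 3.43% and 0.391%. The order of libraries by share was therefore the order by CPM for each gene. Without thinning, 12.03% of B10, 0.137% of *mdx*, 56.2% of DBA and 2.55% of D2-*mdx* cells had a *Slc22a3* UMI, and 8.38%, 0.594%, 12.3% and 0.938% had a *Gabrr2* UMI. Cells with a *Slc22a3* UMI held on average 1.34 of them in B10 against 1.17 in *mdx*, and 1.98 in DBA against 1.19 in D2-*mdx*, at full depth.

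**Figure D3:**
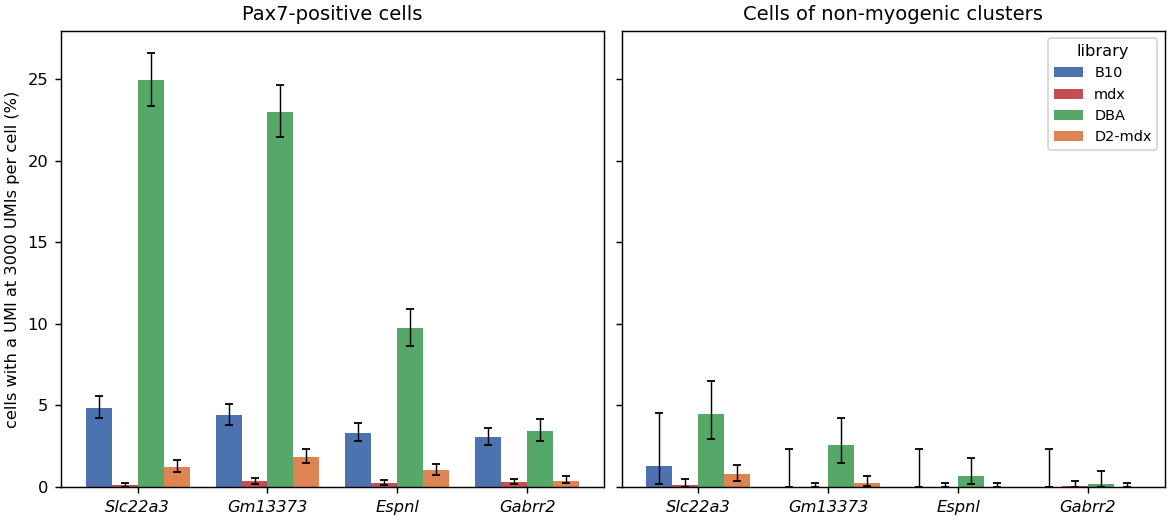
Share of *Pax7*-positive cells (left) and of cells of non-myogenic clusters (right) with a UMI of each gene after thinning to 3000 UMIs, by library, with exact 95% binomial intervals. Among *Pax7*-positive cells, DBA had the highest share of *Slc22a3* at 24.9% and *mdx* the lowest at 0.0913%.

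Most cells with a UMI of the 4 genes held a single one of them at this depth, 1008 of 1337 in DBA and 591 of 637 in B10. Any of them was seen in 14.6% of B10 cells, 0.959% of *mdx* cells, 48.3% of DBA cells and 4.38% of D2-*mdx* cells, and no *mdx* cell held 2 of them. In DBA, 202 cells held both *Slc22a3* and *Gm13373*, where the product of their shares gives 159 cells, and in B10 18 cells held both against 9.39. *Slc22a3* and *Espnl* shared 13 B10 cells against 7.10 and 61 DBA cells against 67.1. Within DBA, the pairs other than *Slc22a3* with *Gm13373* were at 0.758 to 1.12 times the product of their shares. Within B10, pairs ran from 0 for *Espnl* with *Gabrr2* (0 cells against 4.44) to 1.92 for *Slc22a3* with *Gm13373*. These counts were small, and no pair in D2-*mdx* shared more than 3 cells.

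Immediate-early genes such as *Fos*, *Jun* and *Egr1* are induced within minutes by cell isolation and other stimuli, so *Pax7*-positive cells were divided by the summed UMIs of 22 such genes in 3000. Cut points were common to all libraries, at 63 for the low band and 159 for the high band, set so that 3 bands were about equal in size with each library weighted equally. This sum is a range and not a cell type, and 4.43% of cells lay within 10% of the lower cut and 10.5% within 10% of the upper. The controls B10 and DBA had 1389 and 891 cells in the low band, *mdx* and D2-*mdx* 1728 and 1156.

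*Slc22a3* in B10 was at 21.9 CPM in the low, 19.9 in the middle and 12.8 in the high band, and in DBA at 115, 96.4 and 80.1 CPM. In *mdx* it was at 0.115, 0.398 and 0.105 CPM, from 2, 4 and 1 UMIs, and in D2-*mdx* at 1.37, 5.15 and 5.51 CPM. In the controls *Slc22a3* was thus higher where immediate-early genes were low, with log2 ratios of low over high of 0.77 (0.49 to 1.06) in B10 and 0.52 (0.37 to 0.67) in DBA. D2-*mdx* went the other way, at -2.01 (-2.89 to -1.19), and *mdx* had too few UMIs to give a direction, at 0.14 (-4.13 to 6.02). *Gm13373* was level across bands in DBA, at 95.1, 96.1 and 95.0 CPM. In B10 it was at 17.4, 12.1 and 12.2 CPM, with low over high at 0.51 (0.21 to 0.81). In D2-*mdx* it was at 1.05, 3.65 and 11.6 CPM and in *mdx* at 0.288, 0.398 and 2.10, so both dystrophic libraries had most of it in the high band. Low over high was -3.47 (-4.43 to -2.64) in D2-*mdx* and -2.86 (-4.63 to -1.41) in *mdx*.

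*Espnl* gave low over high log2 ratios of -0.01 (-0.36 to 0.32) in B10 and -0.08 (-0.33 to 0.18) in DBA, and of -1.45 (-2.76 to -0.20) in *mdx* and -1.98 (-2.83 to -1.18) in D2-*mdx*. *Gabrr2* was higher in the low band of both controls, by 0.57 (0.21 to 0.92) in B10 and 0.61 (0.17 to 1.07) in DBA. Its intervals in *mdx* (1.04, -0.61 to 3.09) and D2-*mdx* (-1.22, -2.58 to 0.04) both included 0.

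The make-up of the low band differed between libraries. Cells of the MuSC-like clusters made up 91.0% of the low band in B10 and 80.1% in DBA but 42.6% in *mdx* and 36.9% in D2-*mdx*, and 94.4% to 99.5% of the high band. Within MuSC-like clusters alone, an alternative added after the data were seen, *Slc22a3* in D2-*mdx* gave -0.45 (-1.54 to 0.51) for low over high. *Gm13373* gave -1.64 (-2.74 to -0.71) in D2-*mdx* and -1.30 (-3.31 to 0.27) in *mdx*, and *Espnl* -0.13 in D2-*mdx* and -0.08 in *mdx*. *Gabrr2* gave 2.48 (0.72 to 4.58) in *mdx*, from 11 UMIs in the low and 4 in the high band, and -0.12 (-2.17 to 1.53) in D2-*mdx*. Of these values for the dystrophic libraries, that of *Gm13373* in D2-*mdx* was the one whose interval still lay below 0, and that of *Gabrr2* in *mdx* the one whose interval lay above it.

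**Figure D4:**
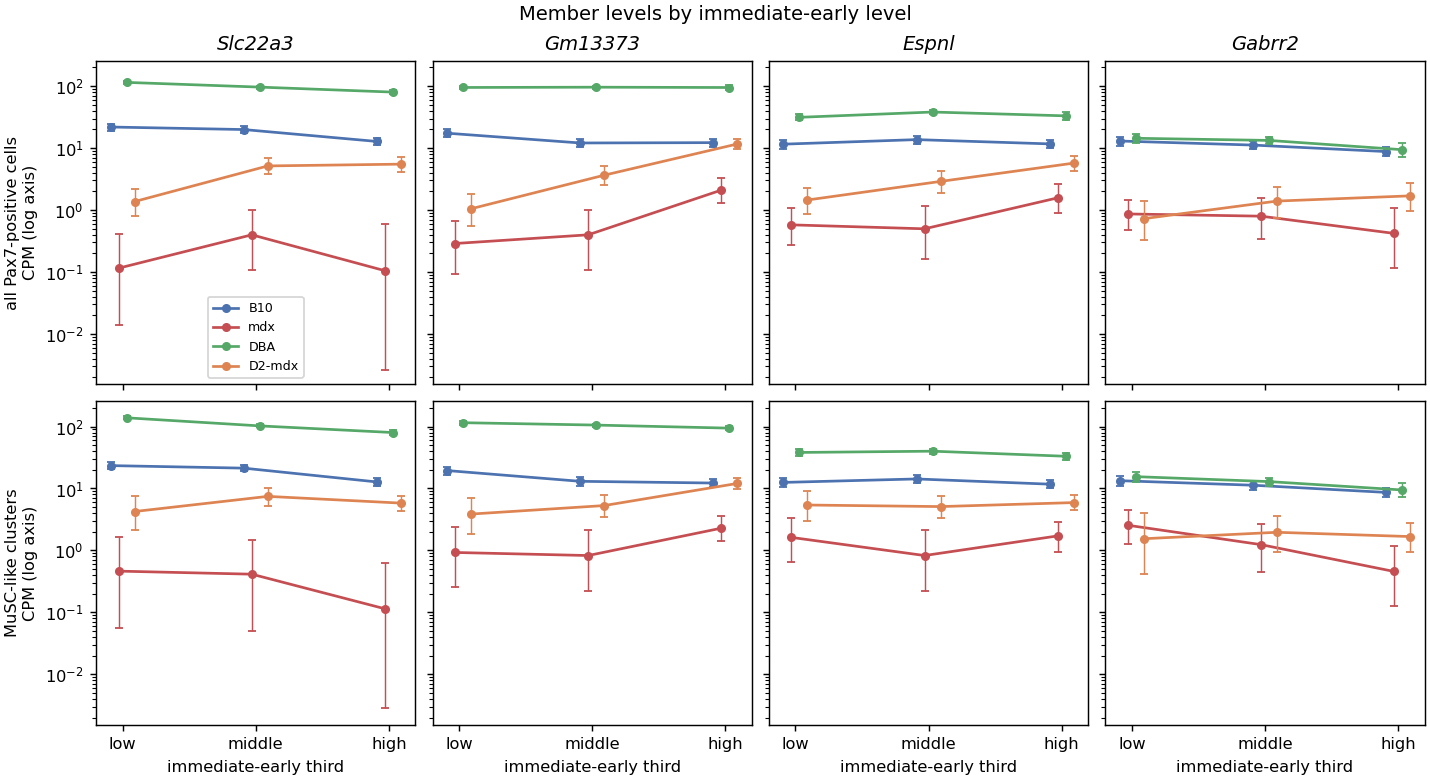
CPM of the 4 genes in the low, middle and high band of immediate-early UMIs, by library, on a log axis with 95% Poisson intervals, for all *Pax7*-positive cells (top) and for MuSC-like clusters (bottom). *Gm13373* in D2-*mdx* ran from 1.05 to 11.6 CPM in the top row, while DBA stayed between 95.0 and 96.1.

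Within each band, all 4 genes were lower in the dystrophic library than in its control. For *mdx* over B10 the log2 ratios in the low, middle and high band were -7.57, -5.64 and -6.93 for *Slc22a3*, -5.91, -4.92 and -2.54 for *Gm13373*, -4.33, -4.78 and -2.89 for *Espnl* and -3.91, -3.81 and -4.39 for *Gabrr2*. For D2-*mdx* over DBA they were -6.39, -4.23 and -3.86, -6.50, -4.72 and -3.03, -4.43, -3.72 and -2.53, and -4.31, -3.25 and -2.48, in the same order of genes. The least negative of these 24 values thus was -2.48, that of *Gabrr2* in the high band of D2-*mdx* over DBA. The low bands were not matched in make-up, as given above. In their MuSC-like cells alone, *Slc22a3* was at 23.4 CPM in B10 against 0.464 (0.0561 to 1.67; 2 UMIs) in *mdx*. It was at 138 CPM in DBA against 4.25 (2.12 to 7.60; 11 UMIs) in D2-*mdx*. Over all low-band cells *Slc22a3* was at 21.9 against 0.115 CPM and at 115 against 1.37 CPM. The *mdx* values of both sets came from the same 2 UMIs, so their difference reflects the number of cells counted.

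*Pax7* was itself lower in both dystrophic libraries, so cells were also grouped by their *Pax7* UMIs of 3000. *Slc22a3* in DBA was at 94.1 CPM in cells with 0 such UMIs, 98.3 with 1 or 2 and 103 with 3 or more, and in D2-*mdx* at 2.01, 4.01 and 5.53 CPM. All ratios of all 4 genes were at or below -2.69 at each *Pax7* level in both comparisons. *Slc22a3* had 0 UMIs among the 990 *mdx* cells of the lowest level, where a floor of 3 UMIs bounds the log2 ratio at -5.90 or lower.

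Clusters of myogenic cells were made without the 4 genes among the features. In the MuSC-like clusters (4110 B10, 3175 *mdx*, 2508 DBA and 2865 D2-*mdx* cells), *Slc22a3* was at 18.6, 0.307, 107 and 6.14 CPM and *Gm13373* at 14.4, 1.53, 105 and 8.96 CPM. Log2 ratios there were -5.92 and -4.12 for *Slc22a3*, -3.23 and -3.56 for *Gm13373*, -3.17 and -2.76 for *Espnl* and -3.20 and -2.89 for *Gabrr2*. In *Pax7*-positive cells without a UMI of 6 progression genes (*Myod1*, *Myog*, *Mki67*, *Top2a*, *Cdkn1c* and *Postn*), they were -5.24 and -3.87, -2.65 and -3.30, -2.98 and -2.88, and -3.61 and -2.38. The 4 genes were thus lower in the dystrophic libraries within these sets of cells too, by less than over all *Pax7*-positive cells. Cells without a progression UMI were picked at full depth. Their median depths were 7976 UMIs in B10 against 5450 in *mdx*, and 9945 in DBA against 5557 in D2-*mdx*. The absence of a progression UMI was therefore not judged at equal depth.

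Myogenic cells of the controls outside the MuSC-like clusters held several of the 4 genes. Differentiating myocyte-like cells had *Gabrr2* at 19.9 CPM in B10 (11 UMIs in 37 cells) and 22.0 in DBA (17 UMIs in 49 cells), against 0.312 in *mdx* (1 UMI in 230 cells) and 1.22 in D2-*mdx* (3 UMIs in 207 cells). In DMD-enriched-like cells, *Espnl* was at 12.9, 0.249, 30.8 and 0.562 CPM and *Slc22a3* at 3.23, 0, 49.5 and 0.702 CPM. *Gm13373* in differentiating myocyte-like cells was listed at 0, 0.312, 7.78 and 0.407 CPM, against 105 in the MuSC-like cells of DBA. In DBA, *Gm13373* was therefore lower in differentiating myocyte-like than in MuSC-like cells, while *Gabrr2* was at 22.0 (12.8 to 35.3) and 13.0 (11.7 to 14.4) CPM there.

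*Gabrr2* was not lower in D2-*mdx* in a small MuSC-like cluster led by *Dlk1* and *Hhip*. There it was at 21.6 CPM (13.3 to 33.0; 21 UMIs) in 94 B10 cells, 0 in 40 *mdx* cells (0 to 13.1), 18.4 CPM (10.9 to 29.1; 18 UMIs) in 88 DBA cells and 23.7 CPM (13.3 to 39.1; 15 UMIs in 13 cells) in 104 D2-*mdx* cells. D2-*mdx* over DBA was 0.36 (-0.73 to 1.43), so the reduction seen elsewhere was not detected in this cluster in the DBA pair. In the B10 pair, the interval of *mdx* lay below that of B10. *Slc22a3* in this cluster was at 71.7 CPM in DBA and 6.32 in D2-*mdx*. In the largest MuSC-like cluster, led by *1200007C13Rik*, *Nr4a1* and *Btg2*, *Gabrr2* was at 10.1, 0.850, 11.8 and 0.994 CPM. The 15 UMIs in 104 cells compare with 38 in all 3839 *Pax7*-positive D2-*mdx* cells. The cluster was chosen after its values were seen.

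Free RNA in a droplet library can give UMIs in cells that do not express a gene, so shares in non-myogenic clusters were taken at the same depth of 3000 UMIs. *Slc22a3* was detected in 1.27% of non-myogenic cells of B10 (2 of 157), 0.134% of those of *mdx* (2 of 1493), 4.49% of those of DBA (26 of 579) and 0.763% of those of D2-*mdx* (12 of 1573), with median full depths of 9644, 7577, 11246 and 7166 UMIs. The groups share cells, since 18.4%, 12.4%, 17.3% and 13.9% of non-myogenic cells in B10, *mdx*, DBA and D2-*mdx* held a *Pax7* UMI. The *Pax7*-positive share exceeded the non-myogenic one in B10, DBA and D2-*mdx*, but the intervals stood apart in DBA only. They were 4.25% to 5.55% and 0.155% to 4.53% in B10, and 0.923% to 1.65% and 0.395% to 1.33% in D2-*mdx*. In *mdx* the shares at this depth, 0.0913% (0.0249 to 0.234; 4 cells) and 0.134% (0.0162 to 0.483; 2 cells), could not be told apart by counting. Both non-myogenic *mdx* cells with a *Slc22a3* UMI were pericyte-like, 2 of 608 such cells. Both in B10 were fibroblast or tenocyte-like, 2 of 6 such cells. Of vascular smooth muscle-like cells, 35.3% of 17 in D2-*mdx* and 21.4% of 14 in DBA had a *Slc22a3* UMI at this depth. The non-myogenic shares of *Slc22a3* include these classes, whose levels are given below, and shares without them were not taken. The overlaps are therefore not read as a result about free RNA. *Gm13373* was detected in 0 of 157 B10, 0 of 1493 *mdx*, 15 of 579 DBA (2.59%) and 4 of 1573 D2-*mdx* (0.254%) non-myogenic cells. *Espnl* was detected in 4 of 579 DBA cells and none of the other libraries, and *Gabrr2* in 1 *mdx* and 1 DBA cell. By the floor of 3 counts, a count of 0 allows a share of up to 1.91% in B10, 0.201% in *mdx* and 0.191% in D2-*mdx*, and the exact binomial intervals reach 2.32%, 0.247% and 0.234%. For *Gm13373*, *Espnl* and *Gabrr2* the *Pax7*-positive share was above the non-myogenic one in every library. The intervals of these shares overlapped for each of these genes in *mdx*, as for *Gm13373* at 0.192% to 0.564% against 0% to 0.247%. In D2-*mdx* they overlapped for *Gabrr2*, at 0.219% to 0.644% against 0% to 0.234%. The counts were 15 of 4380 against 0 of 1493 for *Gm13373* in *mdx*, and 15 of 3839 against 0 of 1573 for *Gabrr2* in D2-*mdx*. An overlap of separate intervals does not show that the shares are equal. In endothelial-like cells, taken as a reference, *Slc22a3* was seen in 0 of 12 B10, 0 of 252 *mdx*, 1 of 9 DBA and 1 of 89 D2-*mdx* cells (1.12%, against 1.25% of *Pax7*-positive cells), too few to set a tighter reference.

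*Slc22a3* was also high in vascular smooth muscle-like cells, led by *Pln*, *Tesc* and *Rergl*, of the DBA background. It was at 8.86 CPM in 7 B10 cells (1 UMI), 1.64 in 58 *mdx* cells (1 UMI), 108 in 14 DBA cells (23 UMIs in 10 cells) and 141 in 17 D2-*mdx* cells (20 UMIs in 12 cells). D2-*mdx* over DBA was 0.38 (-0.56 to 1.31), so the reduction of satellite cells was not detected there, while the other 3 genes had 0 UMIs in these cells in all 4 libraries. *Pax7*-positive cells of D2-*mdx* held 117 UMIs of *Slc22a3* and 157 of *Gm13373*, and those of DBA 3073 and 2965. The vascular smooth muscle-like cells held 20 and 0 in D2-*mdx* and 23 and 0 in DBA. The part of free RNA in these counts was not tested. None of the 14 DBA and 17 D2-*mdx* cells of this cluster had a *Pax7* UMI. In B10 and *mdx*, 1 UMI each gave a log2 ratio of -2.44 (-8.73 to 3.86).

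Pericyte-like cells had *Slc22a3* at 5.61 CPM in B10 against 2.19 in *mdx* and at 9.59 in DBA against 1.71 in D2-*mdx*, with *Gm13373* at 6.92 CPM in DBA and 0 in the other libraries. At full depth, the 2.19 CPM in pericyte-like *mdx* cells was above the 0.190 CPM in *Pax7*-positive *mdx* cells. D2-*mdx* over DBA was -2.49 (-3.49 to -1.60) for *Slc22a3* in these cells, and *mdx* over B10 was -1.36 (-2.92 to 0.36). Fibroblast or tenocyte-like cells held 9 *Slc22a3* UMIs in 3 of 6 B10 cells, 0 in 29 *mdx* cells, 4 UMIs in 1 of 8 DBA cells and 1 UMI in 50 D2-*mdx* cells, with no UMI of the other 3 genes. Glial-like cells of DBA had *Slc22a3* at 51.5 and *Gm13373* at 66.2 CPM in 31 cells, of which 51.6% had a *Pax7* UMI at equal depth, against 17.3% of those of D2-*mdx*. Among non-myogenic cells without any *Pax7* UMI, *Slc22a3* was still detected in 1.57% of B10, 0.153% of *mdx*, 2.30% of DBA and 0.812% of D2-*mdx* cells, while *Gm13373* was at 0.209% in DBA and 0.148% in D2-*mdx*.

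**Figure D5:**
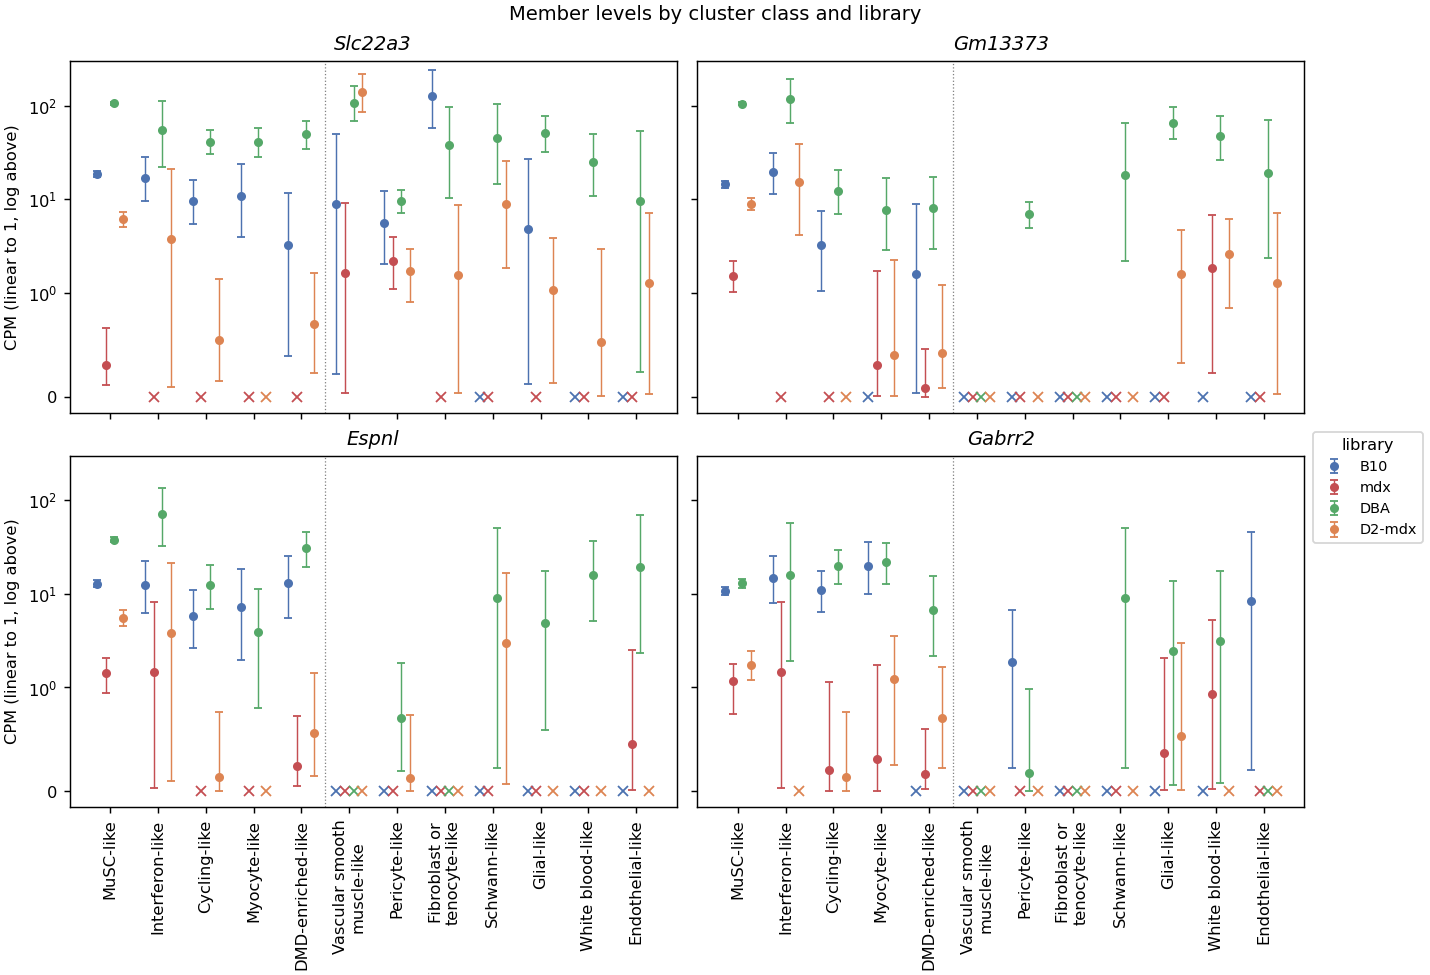
CPM of the 4 genes in each class of clusters, by library, on an axis that is linear to 1 and logarithmic above, with crosses for 0 UMIs and a dotted line between myogenic and non-myogenic classes. *Slc22a3* reached 108 CPM in DBA and 141 in D2-*mdx* vascular smooth muscle-like cells, where the other 3 genes had 0 UMIs.

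Genes of the most similar pattern were taken by the distance between log2(CPM + 1) profiles over the 4 libraries, centred on each gene's mean, in *Pax7*-positive cells. *Slc22a3* and *Gm13373* were each other's nearest gene, at a distance of 0.728. *Mgarp* (1.27), *Tac4*, which encodes a tachykinin (1.45), *Espnl* (1.49) and *Gm26834* (1.64) followed for *Slc22a3*, and *Espnl* (1.12), *Mgarp* (1.29), *Tmem100* (1.37) and *Tac4* (1.47) for *Gm13373*. *Espnl* was nearest to *Tmem100* (0.506), *Ttyh1* (0.688), the calcium channel gene *Cacna1d* (0.694), *Mgarp* (0.752) and *Ppp1r14a* (0.761). *Gabrr2* was nearest to *Wasf3* (0.251), the potassium channel gene *Kcnma1* (0.294), the bicarbonate transporter gene *Slc4a4* (0.323), *Tnxb*, which encodes tenascin X (0.380), and *Pgm5* (0.396). The 5 genes listed for *Gabrr2* thus lay at smaller distances than those listed for *Slc22a3* and *Gm13373*. Such a distance grows with the size of a gene's differences between libraries, so distances are not compared further between the 4 genes.

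The nearest genes on each side that were in the feature table and did not overlap the gene were compared in the same way. Of these, *Slc22a2* and *Gabrr1* had too few UMIs to show a change. *Slc22a2*, 76.4 kb from *Slc22a3* and encoding organic cation transporter 2, had 1 UMI in each library, and *4732491K20Rik*, 91.7 kb away, gave -0.81 and -0.46. *Olfm1*, 84.3 kb from *Gm13373*, gave -0.33 and -0.72, and *Ppp1r26*, 122.7 kb away, -1.49 and -1.66 at 1.03 to 3.26 CPM. *Gm17090*, an antisense gene 973 bases from *Espnl*, had 59 UMIs in B10 against 4 in *mdx* and 76 in DBA against 27 in D2-*mdx*, log2 ratios of -3.77 and -1.50, and *Klhl30* on the other side gave -0.51 and -0.72. *Ube2j1*, 10.6 kb from *Gabrr2*, gave -0.18 and 0.06, and *Gabrr1*, which encodes the rho 1 subunit, had 0 to 2 UMIs.

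Related genes were compared by lists, each counted over its genes that passed the minimum in both pairs. For reference, 2.57% of all such genes were at or below -1 in both comparisons and 3.55% at or above 1, the latter 5.31% in the B10 pair and 5.62% in the DBA pair alone. Of 5 genes of organic cation and monoamine transport, 1 was lower in both, *Slc22a5*, the carnitine transporter gene (-1.70 and -1.17), and none was higher. The monoamine oxidase genes *Maoa* (0.23 and 0.18) and *Maob* (-0.73 and -0.62) were within the limit. In the *Igf2r* imprinted region none of 3 genes passed, with *Igf2r* at -0.19 and -0.58, the noncoding *Airn* at -0.19 and -0.49 and *Map3k4* at -0.20 and -0.09. The large change at *Slc22a3* was therefore not seen at these genes of its region.

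Of 2 genes of GABA receptors and GABA handling none passed in both comparisons, with *Abat*, the GABA transaminase gene, at -0.95 and -1.81 and *Gabbr1*, a metabotropic receptor subunit gene, at -0.89 and -0.99. *Gabre*, the epsilon subunit gene, was at -2.22 and -2.17 but passed the minimum of 10 CPM in the B10 pair only. Of 5 genes of espins and parallel actin bundles, *Espn*, the espin gene, was lower (-1.26 and -1.94) and *Fscn1*, the fascin gene, higher (1.10 and 1.28), with *Pls3* at -0.15 and -0.28 and *Gnai3* at 0.11 and 0.02. Of 24 genes of satellite cell quiescence, 3 were lower in both, *Nppc* (-2.15 and -1.59), *Cxcr4* (-1.09 and -1.35) and *Chrdl2* (-2.07 and -1.22), and none was higher. *Sdc4*, a syndecan gene of this list, was at -0.73 and -0.13. Of 166 genes of a published genuine quiescence list, from which *Slc22a3* and *Espnl* were left out, 48 were lower and none higher, with *Meg3* at -2.37 and -2.77, *Egr1* at -0.79 and -0.29 and *Actg1* at 0.40 and 0.44. The median of that list was -0.88 in the B10 pair and -0.78 in the DBA pair.

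Lists that mark other states and other RNA differed between the libraries too. Of 20 immediate-early genes 1 was higher in both, *Ier5* (2.51 and 2.46), and *Fos* (-0.07 and 0.47) and *Jun* (-0.23 and -0.11) were within the limit. The pairs differed: 2 of the 20 were lower and 1 higher in the B10 pair, at a median of -0.10. In the DBA pair 0 were lower and 4 higher, at a median of 0.44. Of 6 progression genes 5 were higher, *Cdkn1c* (4.48 and 3.32), *Postn* (5.15 and 2.42), *Myog* (3.10 and 3.33), *Mki67* (1.61 and 1.90) and *Top2a* (2.65 and 2.24), with *Myod1* at 0.12 and 0.08. Of 5 genes of myofibre RNA 4 were higher, *Acta1* (1.14 and 3.10), *Mylpf* (2.41 and 3.79), *Eno3* (2.43 and 3.995) and *Tnnc2* (1.14 and 3.09), and *Atp2a1* was at -0.44 and -0.54. Of erythrocyte RNA all 3 were higher, *Hbb-bs* (5.20 and 1.49), *Hba-a1* (5.51 and 1.11) and *Hbb-bt* (5.78 and 1.28), while *Hba-a2* (5.55 and 2.89) passed the minimum in the B10 pair only. In *Pax7*-positive cells, the summed CPM of the 6 progression genes was 153 in B10 against 980 in *mdx*, and 219 in DBA against 701 in D2-*mdx*. The 5 erythrocyte genes summed to 24.1, 994, 290.2 and 748 CPM, the 6 endothelial markers to 4.72, 58.4, 12.02 and 41.3 CPM and the 7 white blood cell markers to 27.8, 236, 126 and 763 CPM, with every marker of these lists detected in each library. The 7 pericyte markers, which include *Notch3* of the satellite cell quiescence list, summed to less in the dystrophic libraries. They were at 404 CPM in B10 against 336 in *mdx*, and at 523 in DBA against 479 in D2-*mdx*. Vascular smooth muscle markers summed to more, at 253, 382, 488 and 602 CPM in B10, *mdx*, DBA and D2-*mdx*. In the same order, glial markers summed to 39.9, 98.1, 47.2 and 106 CPM. Schwann markers summed to 218, 289, 188 and 303 CPM, and fibroblast or tenocyte markers to 890, 1136, 1091 and 1279. RNA of erythrocyte, endothelial and white blood cell genes was thus higher in the dystrophic libraries where the 4 genes were lower, and its part in the ratios was not tested.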

How the data were processed

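The deposited files held, per the labels and the study's methods, UMI counts per gene and cell barcode that the authors made with Cell Ranger 3.0.1 on mm10. The counts were raw, and the values of all 4 libraries were used as deposited. Barcodes were kept at 1000 to 5000 genes and mitochondrial UMIs up to 8%, and the cells with the highest Scrublet scores were removed at a rate of 0.008 per 1000 cells (scanpy 1.11.5), 2.70% to 5.34% of each library. UMIs were summed over *Pax7*-positive cells and divided by their total to give CPM. With 1 library per strain no test was run. Intervals are at 95% and floors at 3 counts, and both cover counting error only. Each cell was thinned to 3000 UMIs for shares. Clusters came from Seurat 5.3.0 (R 4.3.3) with CCA integration on 2000 features and 30 dimensions at resolutions of 0.1 for all and 0.2 for myogenic cells, without the 4 genes among the features. Another integration routine was replaced by this one after its clusters had been seen. Names ending in -like rest on marker lists.

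The 4 genes and the lists were chosen with earlier results of these data known. Genes named beside the 4 were *Dmd* and *Pax7*, the 3 of highest mean CPM in each list and each list gene past a log2 ratio of 1 in the same direction in both comparisons at 10 CPM or more, the 10 lowest in both comparisons, the 5 nearest in pattern to each gene and the nearest gene on each side. The gene on each side was the nearest in the feature table without an overlap. The genuine quiescence genes past the limit are given as a count. A gene that this rule names is not reported here. Alternatives changed the cell limits, *Pax7* minimum, doublet removal, scaling (TMM of edgeR 4.0.16, size factors of DESeq2 1.42.0), thinning, CPM minimum, immediate-early cut points and cells used. Calculations used pandas 2.3.3, scipy 1.17.1 and numpy 2.4.6 in Python 3.11.15 and were tested on simulated data.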

Additional observations from a re-analysis of the deposited data

Results flagged for a closer look

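*Gm13373* had opposite directions across immediate-early bands in the B10 pair, with a log2 ratio of low over high of 0.51 in B10 and -2.86 in *mdx*. *Slc22a3* had opposite directions in the DBA pair, at 0.52 in DBA and -2.01 in D2-*mdx*. Neither difference was tested, since each strain was 1 library. The low band held 91.0% MuSC-like cells in B10 and 80.1% in DBA but 42.6% in *mdx* and 36.9% in D2-*mdx*. Within MuSC-like clusters alone, *Slc22a3* in D2-*mdx* gave -0.45 (-1.54 to 0.51) and *Gm13373* in *mdx* -1.30 (-3.31 to 0.27).

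The 4739 B10 barcodes under 1000 genes, which entered no comparison at the main cell limits, held UMIs of all 4 genes. *Slc22a3* was at 8.2 CPM there (22 UMIs), *Gm13373* at 5.96 (16 UMIs), *Espnl* at 4.84 (13 UMIs) and *Gabrr2* at 13.0 (35 UMIs). Of these barcodes 18.1% had a *Pax7* UMI, at a median depth of 404 UMIs.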

How the results depend on the processing

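No paired analysis was possible because each strain was 1 library. No ratio of a dystrophic library over its control changed direction under the alternatives run. The log2 ratios of the 4 genes stayed between -7.55 and -2.38, and 21 of 88 moved beyond their interval, for which the cause was not tested. For *mdx* over B10, cells without a progression gene gave -5.24 for *Slc22a3*, -2.65 for *Gm13373* and -2.98 for *Espnl*. MuSC-like cells gave -3.23 for *Gm13373*, -3.17 for *Espnl* and -3.20 for *Gabrr2*, and the mean of per-cell counts per 10000 gave -3.53 for *Gm13373*. For D2-*mdx* over DBA in the order *Slc22a3*, *Gm13373* and *Espnl*, a minimum of 500 genes with no upper limit gave -5.19, -4.64 and -3.85 and the mean of per-cell counts -4.43, -3.91 and -3.06. With *Gabrr2* as the last value, MuSC-like cells gave -4.12, -3.56, -2.76 and -2.89 and cells without a progression gene -3.87, -3.30, -2.88 and -2.38. Of 40 ratios of shares 1 moved, *Espnl* in *mdx* over B10 thinned to 2000 UMIs, at -2.94.

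Without a CPM minimum, 8.77%, 9.97% and 4.47% of genes were at or below -1 in *mdx* over B10, D2-*mdx* over DBA and both. At a minimum of 50 CPM, 0 of the 4 genes could be counted, since none reached it in both pairs, and the lower counts were 0 for organic cation transport, 0 for espins and 31 for genuine quiescence, and the higher counts 3 for progression and 0 for myofibre RNA. With no minimum, the lower counts were 3 for organic cation transport, 2 for GABA and 5 for espins, and the higher counts 1 for GABA, 4 for espins, 2 for immediate-early, 5 for erythrocyte RNA and 5 for genuine quiescence.

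For low over high immediate-early level, a single common cut point gave 0.35 for *Slc22a3* in DBA, and its ratio below that cut was -5.64 in D2-*mdx* over DBA. The last 2 alternatives were added after the data were seen. In MuSC-like clusters *Slc22a3* gave 0.79 in DBA and -0.45 in D2-*mdx*, *Gm13373* 0.29 in DBA, -1.64 in D2-*mdx* and -1.30 in *mdx*, and *Espnl* 0.20, -0.13 and -0.081 in the same order. In cells without a progression gene *Slc22a3* gave 0.76 in DBA and -0.90 in D2-*mdx*, *Gm13373* 0.31 and -1.56, *Espnl* 0.18 in DBA and *Gabrr2* 0.70 in D2-*mdx*. Ratios of low over high whose intervals included 0 changed sign, *Gabrr2* in D2-*mdx* from -1.22 to 0.70 and *Espnl* in DBA from -0.08 to 0.18 without progression genes, *Espnl* in DBA to 0.20 in MuSC-like clusters and to 0.04 with the single cut, *Slc22a3* in *mdx* from 0.14 to -0.40 with the single cut, and *Espnl* in B10 from -0.01 to between 0.02 and 0.13 under 4 alternatives.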
